A study of Homo sapiens with 12 samples.

Results

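The genes described here are 52 genes of DNA replication and of the passage from G1 into S phase, out of 60664 genes in the count table. They were chosen by symbol, as the rows whose Ensembl identifier carries the name of a known part of the replication machinery or of its E2F control. The rule uses no measured value, but the list was drawn up with earlier results of these data known. Each symbol matched 1 identifier. All 52 passed the filter on low counts, and the lowest count of any of them in any library was 271.

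RNA was measured in human lymphoblast lines from B-cell acute lymphoblastic leukaemia: TOM-1, which has the BCR-ABL1 fusion of the Philadelphia chromosome, and RS4;11, in which KMT2A is rearranged. Both lines are labelled wild type and were grown in RPMI with 20% fetal bovine serum. In each line, 3 libraries came from control culture and 3 from cells given ADI-PEG20 at 1000 ng/ml, all taken after 24 h. The agent is arginine deiminase coupled to polyethylene glycol, which turns the arginine of the medium into citrulline. Each condition is thus represented by 1 line of each genetic type. Nothing in the labels says that replicates came from separate cultures, so p-values measure only the spread between these libraries, which may be technical.

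A eukaryotic cell prepares its origins in G1. The origin recognition complex (ORC1 to ORC6), with CDC6 and CDT1, loads the ring-shaped MCM2-7 complex onto DNA, and geminin (GMNN) blocks reloading once S phase has begun. In S phase CDC45 and the GINS complex join MCM2-7 to form the active helicase, polymerases alpha, delta and epsilon copy the strands, and PCNA, loaded by replication factor C, holds the polymerase on its template. Many of these genes are transcribed under E2F factors, which the retinoblastoma protein restrains until cyclin-dependent kinases, cyclin E with CDK2 among them, act on it. In RNA from bulk culture, fewer cells in S phase and less RNA per cell cannot be told apart.

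Promoters of these genes are shown first because they show the letters that E2F factors are known to read. Among 45 members with an entry in the RefSeq promoter table (GRCh38.p14, 58 windows from 250 bases before the start to 50 after it), 22 genes (48.9%) held at least 1 of the words TTTCCCGC, TTTGGCGC, TTTCGCGC or TTTGCCGC on either strand. The same words occurred in 3.99% of the 27305 genes of the table, and in 39.7% of the members' windows against 3.31% of all 35116 windows. Words can overlap one another, as they do in MCM6. The 4 stretches below are the 120 bases before a start, 5′ to 3′ on the gene's own strand, with the E2F words of either strand in capitals. Of these 4 genes, MCM6 and PCNA fell in TOM-1 under ADI-PEG20. E2F2 rose, and E2F1 rose when 1 departing library was left out. They are 4 of the 22 genes with a word and do not represent the directions of all members.
MCM6 (chr2:135876444-135876563, minus strand): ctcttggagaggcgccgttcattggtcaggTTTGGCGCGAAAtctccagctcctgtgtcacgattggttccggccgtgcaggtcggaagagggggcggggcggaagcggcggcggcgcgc
PCNA (chr20:5126623-5126742, minus strand): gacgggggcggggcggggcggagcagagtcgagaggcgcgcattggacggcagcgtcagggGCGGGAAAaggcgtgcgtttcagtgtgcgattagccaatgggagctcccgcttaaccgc
E2F1 (chr20:33686386-33686505, minus strand): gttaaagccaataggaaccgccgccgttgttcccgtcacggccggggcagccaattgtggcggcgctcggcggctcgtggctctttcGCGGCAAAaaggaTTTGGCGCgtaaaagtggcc
E2F2 (chr1:23531234-23531353, minus strand): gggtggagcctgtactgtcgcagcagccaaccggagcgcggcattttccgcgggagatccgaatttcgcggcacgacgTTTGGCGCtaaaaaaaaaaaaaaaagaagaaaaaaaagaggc
The words stood in promoters of members that moved either way. With the departing library left out, they were found in 15 of the 28 lower members with a promoter entry (53.6%), in 3 of 6 higher members (50%; ORC3, E2F1 and E2F2) and in 4 of 11 that passed no threshold (36.4%; CDC6, CDT1, GMNN and POLA2). CCAAT, a word of many promoters of dividing cells, was in 56.9% of the members' windows and in 34.6% of all windows, on either strand. CACGTG, the E-box word, was in 12.1% against 7.26%, and TTTGAA in 1.72% against 15.2%. A match is a description of the letters only.

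The libraries held 18958144 to 35956959 counts. TOM-1 control replicate 3 departed from the rest: it had counts in 14963 genes, where the other 11 libraries had 19857 to 21997, and its log values correlated at 0.926 and 0.921 with the other TOM-1 controls, where other replicate pairs reached at least 0.975. Its departure touched the members unevenly. Relative to the mean of replicates 1 and 2, its level ranged from 0.298 times for CCNE2 to 2.95 times for POLA2, with 27 members above both of the others, 22 below both and 3 between. Across the 52 genes the log2 ratio correlated with log2 exonic length at r = -0.454 (Spearman's rho -0.495), and across 17072 tested genes at r = -0.0659; genes are not independent replicates, and they share 1 library here. Counts over the members and the TOM-1 change of each gene that passed are therefore given with all 12 libraries and again with that library left out.

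**Figure D1:**
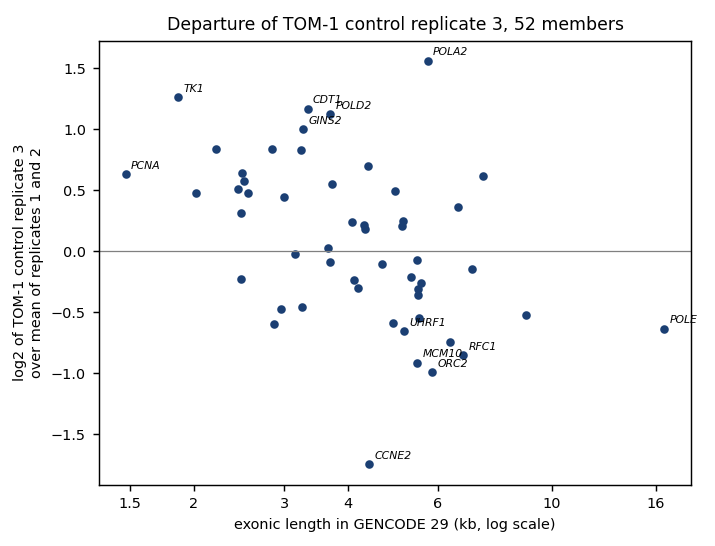
Each point is 1 of the 52 genes, with its exonic length in kb (log axis) against the log2 ratio of its CPM in TOM-1 control replicate 3 to the mean of TOM-1 control replicates 1 and 2. POLA2 lies highest and CCNE2 lowest, and the correlation over the 52 genes is -0.454.

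All 12 markers of the B lineage, among them PAX5 and CD79A, had more than 3 counts in every library. Their summed level was 7154 to 8704 CPM (counts scaled to the effective library size) in TOM-1 control, 7565 to 7836 in treated TOM-1, 2947 to 3189 in RS4;11 control and 3046 to 3425 in treated RS4;11. Of 9 T and NK cell markers, 2 to 4 had more than 3 counts in a library, and the summed level was 150.4 to 279.3 CPM in TOM-1 control, 181.0 to 193.6 in treated TOM-1, and 475.1 to 537.9 in RS4;11 control against 479.7 to 512.2 treated. The defining T cell markers CD3G, CD3D and CD3E lay at 0 or under 0.24 CPM, and TRAC, at 123 to 479 CPM, made most of that sum. Of 11 myeloid and erythroid markers, 2 to 5 passed 3 counts. Their summed level was 15.05 to 26.7 CPM in TOM-1 control and 10.19 to 16.05 in treated TOM-1. It was 15.71 to 21.23 in RS4;11 control and 13.55 to 17.3 in treated RS4;11. ELANE, S100A8 and HBB were at 0 in all libraries. Only 3 of the 11 passed the filter and were tested. Of these, 1 fell in treated TOM-1 (log2 change -3.2, or -3.18 without TOM-1 control replicate 3). All 3 differed between the untreated lines, by -7.39 to 5.18, with 1 higher and 2 lower in TOM-1.

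In TOM-1, RNA of the replication genes was lower under ADI-PEG20. The 52 members together made 9752, 9732 and 10570 CPM in the 3 controls and 6316, 6278 and 6105 CPM in the treated libraries, so the groups did not overlap. By edgeR's quasi-likelihood test at an adjusted p under 0.05, 28 members fell, 4 rose and 20 did not pass. Over all 17349 tested genes 31.9% passed, 15.9% lower and 15.9% higher. The members' median log2 fold change was -0.51, beside 0.05 for all tested genes. With the departing library left out, 34 fell and 6 rose, where 41.6% of 18321 genes passed, 19.8% lower and 21.8% higher; the medians were -0.47 and 0.00. The 32 members that had passed all passed again in the same direction, and ORC2, MCM10, POLA1, POLD3, POLE2, RFC5, TYMS and E2F1 joined them. Treated libraries lay wholly below the controls for 30 members and wholly above for 6, against 20.1% and 26.1% of tested genes; with that library left out these were 38 and 9 members, against 29.1% and 32.0%.

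**Figure D2:**
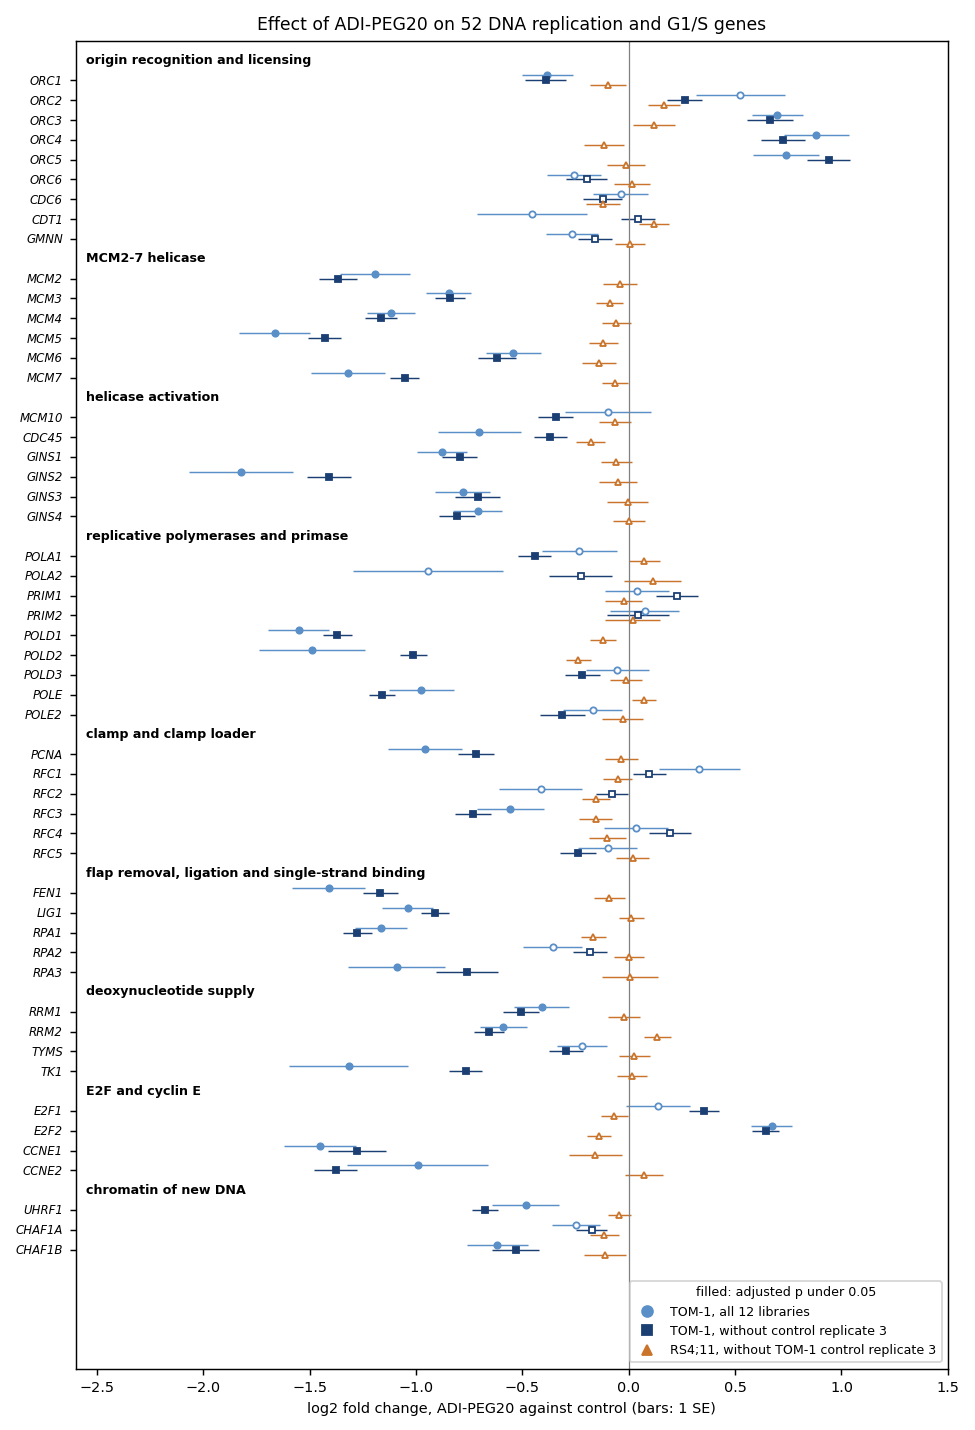
Log2 fold change of each of the 52 genes under ADI-PEG20, in role groups, for TOM-1 with all 12 libraries (circles), TOM-1 without control replicate 3 (squares) and RS4;11 (triangles, from the fit without that TOM-1 library). Bars are 1 SE and filled symbols have an adjusted p under 0.05: 32 circles and 40 squares are filled, and no triangle is.

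In RS4;11 none of the 52 members passed at either setting. With all libraries none had an unadjusted p under 0.05, DESeq2 and limma voom called 0, and 0% of all tested genes passed. With the departing TOM-1 library left out, the spread shared by the model was smaller, and 0.317% of all genes passed (0.202% higher and 0.115% lower). There 7 members had an unadjusted p under 0.05: ORC2, CDC45, POLD2, RFC2, RPA1, RRM2 and E2F2. The share of all tested genes with such a p was not counted, so this number has no background beside it. Fitted log2 changes ran from -0.24 for POLD2 to 0.17 for ORC2, with a median of -0.04. The 95% confidence bounds lay between -0.77 and 0.88 over all members, and between -0.42 and 0.39 with the departing library left out. Treated RS4;11 libraries lay above the controls for ORC2 and below them for CDC45, POLD1, POLD2 and E2F2, where 7.72% and 9.05% of tested genes did so. The summed level of the 52 genes was 11550, 11230 and 10080 CPM in control replicates 1, 2 and 3. With ADI-PEG20 it was 10950, 10980 and 9803 CPM. These ranges overlapped, with replicate 3 lowest in both, and each treated library lay below the control of its number. The sums themselves were not tested.

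The difference between the lines was itself tested, as the TOM-1 effect minus the RS4;11 effect in the same model. It passed for 24 members, of which 20 had the lower effect in TOM-1 and 4 the higher one, against 6.05% and 5.89% of all tested genes. The median difference was -0.42 on the log2 scale, beside 0.04 for all genes. With the departing library left out, 33 members passed (28 and 5, against 14.7% and 15.7%). This contrast and the TOM-1 contrast share the TOM-1 control libraries, as does the comparison of the lines in control culture.

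**Figure D3:**
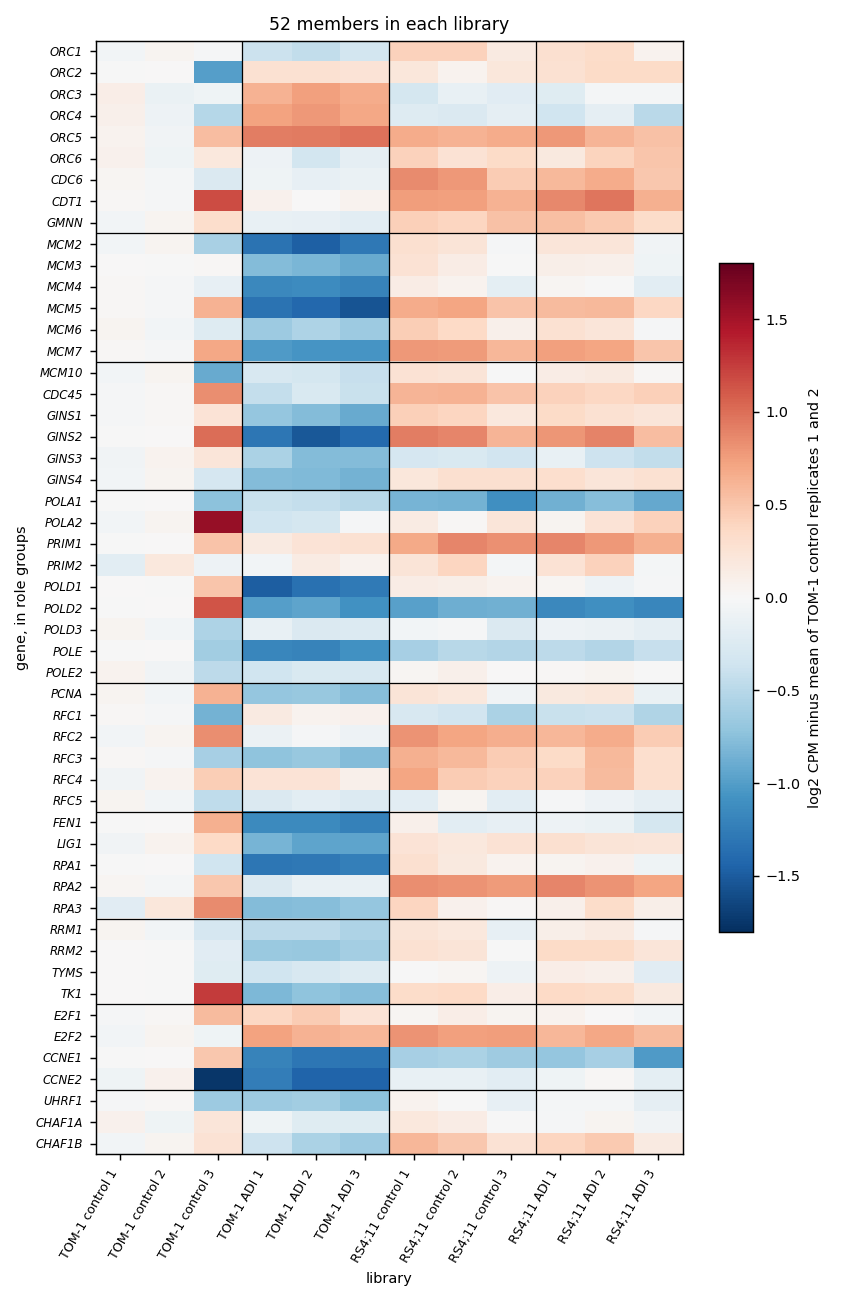
Level of each of the 52 genes in each of the 12 libraries, as log2 CPM minus the mean of TOM-1 control replicates 1 and 2; blue is lower and red higher. The 3 treated TOM-1 libraries are blue for most of the genes below the origin recognition complex, TOM-1 control replicate 3 holds both red and blue, and no member passed between control and treated RS4;11.

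Of the 9 genes of origin recognition and licensing, 3 rose and 1 fell in TOM-1, and 4 rose and 1 fell with the departing library left out. Over all tested genes 15.9% rose and 15.9% fell, or 21.8% and 19.8% with that library left out. The genes that rose with all libraries, ORC3, ORC4 and ORC5, code for subunits of the origin recognition complex. ORC4, part of its ATPase core (chr2:147930397-148021604), had 41.5, 36.5 and 27.2 CPM in TOM-1 control and 64.6, 66.6 and 62.9 CPM with ADI-PEG20. Every treated library was above every control. Its log2 fold change was 0.88 (SE 0.15, adjusted p = 0.00123), and 0.73 (SE 0.10, adjusted p = 4.75e-06) with that library left out. In RS4;11 it had 33.3, 32.5 and 34.9 CPM in control and 30.4, 34.7 and 27.8 CPM treated, which overlap, and the effects in the lines differed by 0.997 (adjusted p = 0.0124), or 0.84 with that library left out.

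ORC5, another ATPase subunit (chr7:104126341-104208047), had 26.1, 23.7 and 36.5 CPM in TOM-1 control and 47.2, 47.6 and 49.0 CPM treated. Its treated libraries were all higher, and its log2 fold change was 0.74 (adjusted p = 0.0038), or 0.94 (adjusted p = 1.16e-07) with the departing library left out. In a fit on the TOM-1 libraries alone ORC5 missed the threshold (0.70, adjusted p = 0.0604). ORC3, a structural subunit (chr6:87590067-87667453), had 36.0, 30.3 and 31.2 CPM in control and 50.8, 54.9 and 52.3 CPM treated, again with no overlap, for a change of 0.70 (adjusted p = 0.00114) or 0.67 (adjusted p = 2.46e-05). In RS4;11 ORC3 lay at 26.4 to 32.2 CPM and ORC5 at 35.8 to 42.9 CPM over both conditions. The differences between the lines, 0.58 for ORC3 (adjusted p = 0.0475) and 0.75 for ORC5 (adjusted p = 0.0452), were lost in 13 and 15 of 21 alternative settings, among them those that left out any 1 of the RS4;11 or treated TOM-1 libraries. With the departing library left out they were 0.54 (adjusted p = 0.00579) and 0.95 (adjusted p = 9.99e-06).

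ORC2, which binds ORC3 in the complex, had 45.3, 45.4 and 22.7 CPM in TOM-1 control and 54.8, 54.8 and 53.8 CPM treated. The last control is the departing library, at a level far below the other 2. Its log2 fold change was 0.53 (adjusted p = 0.0748) with all libraries, and it passed at 0.26 (adjusted p = 0.0142) with that library left out. In RS4;11 ORC2 was 47.5 to 52.4 CPM in control and 55.1 to 57.8 CPM treated, without overlap, at 0.17 (adjusted p = 1, or 0.376 with the TOM-1 library left out). ORC1, the subunit that is known to be made and destroyed with the cell cycle, went the other way in TOM-1: 60.6, 65.4 and 62.3 CPM in control and 48.2, 46.3 and 49.95 CPM treated, a fall of 0.38 on the log2 scale (adjusted p = 0.0279), or of 0.39 (adjusted p = 0.00194). ORC6 had 66.4 to 79.9 CPM in control and 55.8 to 65.9 CPM treated and did not pass (adjusted p = 0.143).

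The loading factors did not pass in TOM-1. CDC6, the ATPase that completes the loading machine (chr17:40287633-40304657), had 83.8, 79.1 and 68.0 CPM in control and 76.8, 73.7 and 74.7 CPM treated, at -0.04 (adjusted p = 0.884, or 0.33 with the departing library left out). CDT1, which brings MCM2-7 to the origin (chr16:88803213-88809258), had 143, 139 and 317 CPM in control and 148, 142 and 147 CPM treated. The value of 317 is that of the departing library, and it decides the estimate: the change was -0.45 (adjusted p = 0.208) with all libraries and 0.04 (SE 0.08, adjusted p = 0.727) without it. GMNN, the inhibitor of CDT1 (chr6:24774931-24786099), had 64.2, 68.3 and 82.2 CPM in control and 60.5, 60.02 and 57.9 CPM treated. Its groups did not overlap, but its change of -0.27 did not pass (adjusted p = 0.114, or 0.126 with that library left out).

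All 6 genes of the MCM2-7 ring fell in TOM-1, with a median log2 fold change of -1.15, or -1.11 with the departing library left out. The shares of all tested genes that fell were 15.9% and 19.8%. MCM5 (chr22:35400063-35425430) had 265, 257 and 402 CPM in control and 104, 98.3 and 89.3 CPM with ADI-PEG20. It fell by 1.66 on the log2 scale (SE 0.17, adjusted p = 3.73e-05), or by 1.43 (SE 0.08, adjusted p = 2.43e-12) without the highest control, which is the departing library. In RS4;11 it had 415, 427 and 373 CPM in control and 386, 393 and 339 CPM treated, with overlap and a 95% confidence interval of -0.26 to 0.02 in the fit without that TOM-1 library. The difference between the lines was -1.54 (adjusted p = 0.0018), or -1.31.

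MCM4 (chr8:47960185-47978160) was steadier among its controls, at 946, 925 and 847 CPM, and had 419, 428 and 407 CPM treated. It fell by 1.12 (adjusted p = 3.8e-05), or 1.17 with the departing library left out, and the RS4;11 libraries lay at 828 to 1023 CPM in control and 822 to 960 CPM treated. MCM2 fell from 334, 358 and 231 CPM to 138, 125 and 141 CPM, MCM3 from 552, 549 and 560 CPM to 321, 310 and 292 CPM, and MCM7 from 703, 688 and 1128 CPM to 343, 333 and 332 CPM. Their log2 changes were -1.19, -0.85 and -1.32, and -1.37, -0.84 and -1.05 with the departing library left out. MCM6 showed the smallest fall of the ring, from 314, 295 and 258 CPM to 194, 207 and 194 CPM, at -0.54 (adjusted p = 0.00733) or -0.62. No treated TOM-1 library reached any control for any of the 6. The differences between the lines passed for all but MCM6 (-0.41, adjusted p = 0.173), which passed with the departing library left out (-0.48, adjusted p = 0.00333). For MCM2 a gene of the opposite strand covers 23.6% of the exonic bases, and whether counting used strand is not given in the sources used here.

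**Figure D4:**
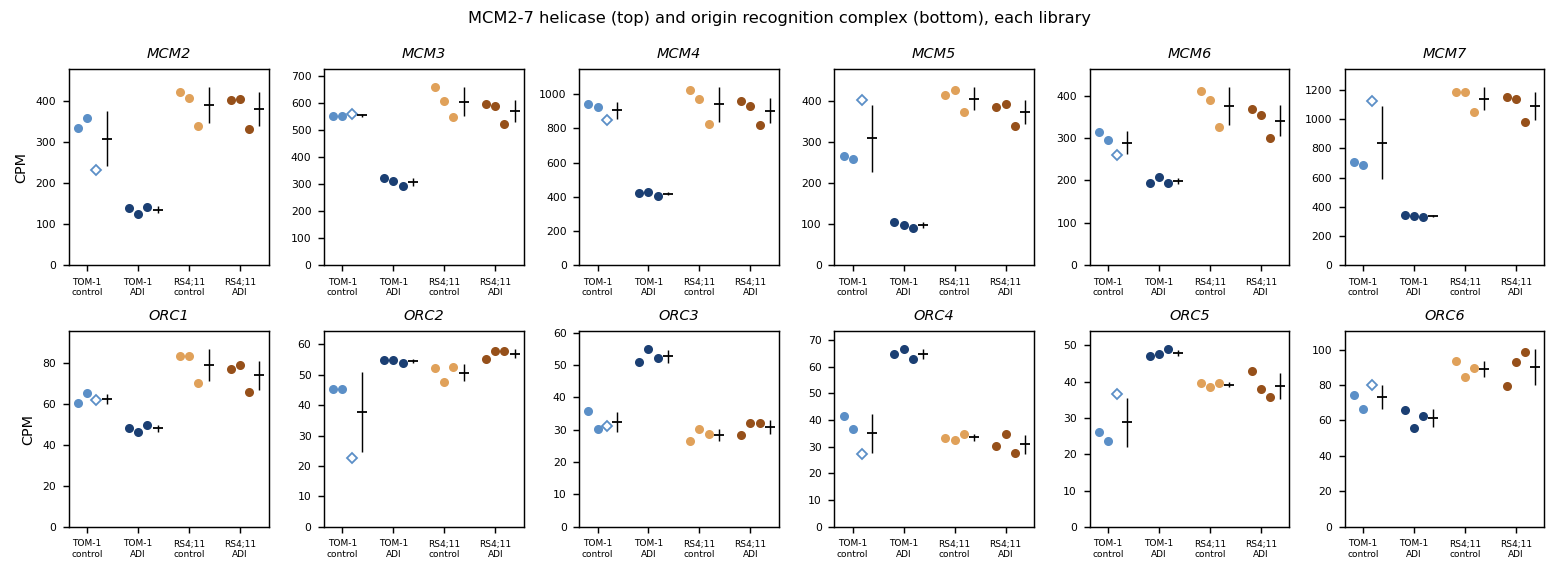
CPM of the 6 MCM2-7 genes (top) and the 6 ORC genes (bottom) by group; points are libraries, the open diamond is TOM-1 control replicate 3, ticks with bars are mean ± SD (n = 3), and axes start at 0. In TOM-1 all 6 MCM genes are lower with ADI-PEG20, while ORC3, ORC4 and ORC5 are higher.

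Divided by exonic length, the ring genes spanned a wide range of levels in both conditions. In TOM-1 control MCM7 had 191 ± 57 CPM per kb (SD, n = 3), MCM3 152 ± 1.5, MCM4 130 ± 7.5, MCM6 70.2 ± 6.8, MCM2 62.7 ± 14 and MCM5 42.0 ± 11. The ranges of mean ± SD overlapped for MCM7 and MCM3, and for MCM6 and MCM2. These control values include the departing library, where MCM7 had 1128 CPM beside 703 and 688 CPM in the other controls. Levels per kb were not computed without that library, and their order was not tested. With ADI-PEG20 the levels per kb were 84.4 ± 3.9 for MCM3, 76.6 ± 1.4 for MCM7, 59.9 ± 1.5 for MCM4, 48.2 ± 1.9 for MCM6, 27.4 ± 1.8 for MCM2 and 13.2 ± 1.0 for MCM5, so that MCM3 stood above MCM7. In the origin recognition complex, ORC1 had 19.9 ± 0.77 CPM per kb in TOM-1 control and 15.3 ± 0.58 treated, and ORC4 3.93 ± 0.81 and 7.26 ± 0.21. Lengths are the union of annotated exons, which overstates the length of transcripts with few of them, so levels between genes are approximate.

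The genes that turn the loaded ring into a moving helicase fell with it. Of 6, 5 fell with all libraries and 6 with the departing library left out, beside 15.9% and 19.8% of all tested genes. GINS2, a subunit of the GINS tetramer (chr16:85676198-85690073), had 65.4, 66.4 and 132 CPM in TOM-1 control and 26.7, 22.9 and 25.1 CPM treated. The departing control was about as high as the RS4;11 libraries (97.2 to 124 CPM), and the treated libraries were below all of these. Its fall of 1.82 (SE 0.25, adjusted p = 0.000242) was 1.41 (SE 0.10, adjusted p = 3.61e-10) without that control. GINS1 (chr20:25407727-25452628) fell from 102, 105 and 123 CPM to 63.9, 60.4 and 55.3 CPM, at -0.88 (adjusted p = 0.000256), or -0.79 without that control. GINS3 and GINS4 fell by 0.78 and 0.71, or by 0.71 and 0.81 without it, and all 4 GINS genes differed between the lines, by -0.71 to -1.77, or by -0.70 to -1.36 without that control.

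CDC45, the partner of GINS, had 63.8, 65.5 and 116 CPM in TOM-1 control and 47.9, 53.4 and 49.1 CPM treated. It fell by 0.70 (adjusted p = 0.0166), but by 0.37 (adjusted p = 0.000434) without the departing control, and its difference between the lines did not pass (-0.53, adjusted p = 0.246, or -0.19, adjusted p = 0.185). CDC45 also had treated libraries below the controls in RS4;11, at 83.7 to 86.8 CPM against 92.5 to 99.3 CPM, with an adjusted p of 1 (0.262 with the TOM-1 library left out). MCM10, which helps the helicase start, had 92.8, 98.5 and 50.8 CPM in TOM-1 control and 71.6 to 78.3 CPM treated. It did not pass with all libraries (-0.10, adjusted p = 0.778) and fell by 0.34 (adjusted p = 0.00177) without the control at 50.8.

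Among the 9 polymerase and primase genes 3 fell in TOM-1, and 6 with the departing library left out. Over all tested genes 15.9% and 19.8% fell. POLD1, the catalytic subunit of polymerase delta (chr19:50384204-50418016), had 202, 201 and 285 CPM in control and 72.2, 79.2 and 83.1 CPM treated. Treated libraries were far below every control, and POLD1 fell by 1.55 (SE 0.14, adjusted p = 1.84e-05), or 1.37 (SE 0.07, adjusted p = 5.95e-13). In RS4;11 it had 220, 216 and 210 CPM in control and 206, 189 and 199 CPM treated, a narrow gap with no overlap that did not pass at -0.12 (adjusted p = 1, or 0.433). POLD2, its accessory subunit, had 295, 295 and 643 CPM in TOM-1 control and 138 to 153 CPM treated, a fall of 1.49 (adjusted p = 0.000946), or of 1.01 (adjusted p = 3.13e-11) without the control at 643. Its difference between the lines went from -1.25 (adjusted p = 0.0364) to -0.77 (adjusted p = 5.08e-07) without that control. POLD2 also had the lowest RS4;11 estimate of the 52, with 149, 161 and 161 CPM in control and 132, 138 and 131 CPM treated, at -0.24 (adjusted p = 1, or 0.0778 with the departing library left out).

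POLE, the catalytic subunit of polymerase epsilon (chr12:132623753-132687365), had 347, 349 and 225 CPM in TOM-1 control and 154, 152 and 164 CPM treated. It fell by 0.97 (adjusted p = 0.00062), or 1.16 (adjusted p = 1.49e-12) without the lowest control, which here is the departing library. RS4;11 libraries lay at 229 to 246 CPM in control and 241 to 261 CPM treated, and the difference between the lines was -1.05 (adjusted p = 0.0094), or -1.23. The genes of primase, which starts each new strand, did not pass: PRIM1 had 29.6 to 42.4 CPM in control and 33.1 to 36.0 CPM treated, and PRIM2 23.4 to 30.4 and 25.8 to 29.5 CPM. POLA1, the catalytic subunit of polymerase alpha, did not pass with all libraries (-0.23, adjusted p = 0.356) and fell by 0.44 (adjusted p = 7.13e-05) with the departing library left out. POLA2, of whose exonic bases 35.1% are shared with a gene on the same strand, had 16.1, 17.3 and 49.5 CPM in control and 13.1 to 16.4 CPM treated and did not pass at either setting.

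PCNA, the sliding clamp (chr20:5114953-5126626), had 425, 400 and 639 CPM in TOM-1 control and 254, 257 and 242 CPM treated. All treated libraries were lower, and PCNA fell by 0.96 (SE 0.17, adjusted p = 0.00155), or 0.72 (SE 0.09, adjusted p = 5.16e-07) without the highest control. RS4;11 had 483, 470 and 394 CPM in control and 464, 473 and 378 CPM treated. The difference of -0.92 between the lines (adjusted p = 0.03) was lost in 10 of 21 settings, among them those that left out any 1 treated TOM-1 or RS4;11 control library, and was -0.68 (adjusted p = 9.1e-05) with the departing library left out.

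Of the 5 clamp loader genes, RFC3 (chr13:33818049-33966558) fell, from 81.0, 78.0 and 52.5 CPM to 48.2, 49.4 and 46.4 CPM. Its log2 change was -0.56 (adjusted p = 0.019), or -0.73 (adjusted p = 3.49e-07) without the control at 52.5. The call ended when TOM-1 control replicate 1 or treated TOM-1 replicate 1 or 3 was left out, and in a fit on the TOM-1 libraries alone (adjusted p up to 0.0774). RFC1, RFC2 and RFC4 passed at neither setting, and RFC5 passed with the departing library left out (-0.24, adjusted p = 0.027) and not with all libraries (adjusted p = 0.65).

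Among genes that process the lagging strand and cover single-stranded DNA, 4 of 5 fell. This held with and without the departing library, where 15.9% and 19.8% of all tested genes fell. FEN1, the flap endonuclease, fell from 197, 197 and 308 CPM to 89.5, 89.4 and 85.1 CPM in TOM-1, at -1.41 (adjusted p = 0.000125), or -1.17 (adjusted p = 1.29e-10) without the control at 308. LIG1, the ligase that joins Okazaki fragments (chr19:48115445-48170603), fell from 149, 161 and 199 CPM to 86.9, 80.4 and 80.5 CPM, at -1.04 (SE 0.12, adjusted p = 9.12e-05), or -0.91 with the departing library left out. RPA1, the large subunit of the single-strand binding protein RPA (chr17:1829702-1900082), fell from 268, 271 and 210 CPM to 109, 111 and 114 CPM, at -1.16 (SE 0.12, adjusted p = 4.59e-05), or -1.27. In none of these did a treated library reach a control.

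The 3 subunits of RPA did not move by like amounts. RPA3 fell by 1.09 (adjusted p = 0.00366), or by 0.76 (adjusted p = 0.000184) with the departing library left out, from 19.6, 25.9 and 40.7 CPM to 13.1, 13.2 and 13.96 CPM, while RPA2 had 52.6, 50.4 and 71.9 CPM in control and 42.9 to 46.8 CPM treated and did not pass (-0.36, adjusted p = 0.0709, or -0.18, adjusted p = 0.0788). Whether the subunits differ from each other was not tested. In RS4;11 RPA1 had 282 to 330 CPM in control and 256 to 284 CPM treated, LIG1 177 to 185 and 180 to 189 CPM. The effects differed between the lines for FEN1 (-1.32), LIG1 (-1.05), RPA1 (-0.998) and RPA3 (-1.10), with adjusted p from 0.00255 to 0.0446; with the departing library left out these were -1.07, -0.92, -1.11 and -0.76.

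Genes that supply deoxynucleotides fell, 3 of 4 with all libraries and 4 with the departing library left out. The shares of all tested genes that fell were 15.9% and 19.8%. RRM2, the small subunit of ribonucleotide reductase that is made in S phase (chr2:10120698-10131419), had 366, 365 and 317 CPM in TOM-1 control and 230, 228 and 239 CPM treated, at -0.59 (SE 0.11, adjusted p = 0.002), or -0.66 with that library left out. In RS4;11 it had 441, 430 and 362 CPM in control and 466, 462 and 427 CPM treated, which overlap, and the difference between the lines was -0.72 (adjusted p = 0.0121), or -0.79. For RRM2, 20.2% of exonic bases are shared with a gene on the same strand. RRM1, the large subunit, fell by 0.41 (adjusted p = 0.0314), or 0.51.

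TK1, the thymidine kinase of S phase (chr17:78174075-78187233), had 145, 145 and 348 CPM in TOM-1 control and 82.9, 87.6 and 85.5 CPM treated. The departing control was more than 2 times the others, and the fall of 1.32 (SE 0.28, adjusted p = 0.00392) was 0.77 (SE 0.08, adjusted p = 3.59e-08) without it. RS4;11 libraries lay at 157 to 186 CPM in control and 164 to 185 CPM treated. The difference of -1.33 between the lines (adjusted p = 0.0454) was lost whenever any 1 RS4;11 or treated TOM-1 library was left out, and was -0.78 (adjusted p = 4.15e-06) without the departing control. TYMS, thymidylate synthase, of whose exonic bases 46.6% overlap a gene of the opposite strand, did not pass with all libraries (-0.22, adjusted p = 0.185) and fell by 0.29 (adjusted p = 0.00522) without that control.

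Of the E2F and cyclin E genes, E2F2 rose and CCNE1 and CCNE2 fell in TOM-1, and E2F1 did not pass with all libraries. E2F2, an activator of the family (chr1:23506430-23531220), had 170, 181 and 167 CPM in control and 289, 270 and 267 CPM with ADI-PEG20. Here the departing library lay with the other controls, and E2F2 rose by 0.67 (SE 0.10, adjusted p = 0.000342), or 0.64 (SE 0.06, adjusted p = 2.94e-08). In RS4;11 it had 308, 293 and 294 CPM in control and 266, 285 and 261 CPM treated, below the controls but not past the threshold (-0.14, adjusted p = 1, or 0.287). The difference of 0.81 between the lines passed (adjusted p = 0.00316), as it did at 0.78 with that library left out.

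E2F1, a further activator (chr20:33675683-33686404), had 116, 120 and 176 CPM in TOM-1 control and 152, 162 and 140 CPM treated. The treated libraries were above the first 2 controls and below the departing one. Its change was 0.14 (adjusted p = 0.538) with all libraries, and it rose by 0.35 (SE 0.07, adjusted p = 0.000363) without that control. RS4;11 libraries lay at 121 to 128 CPM in control and 114 to 123 CPM treated, and the difference between the lines was 0.21 (adjusted p = 0.602), or 0.42 (adjusted p = 0.00184) without the departing control.

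CCNE1, cyclin E1, which drives CDK2 at the start of S phase (chr19:29811898-29824308), fell from 28.1, 28.4 and 39.5 CPM to 12.2, 11.5 and 11.3 CPM. Treated libraries were well below the controls, at -1.45 (SE 0.17, adjusted p = 9.02e-05), or -1.28 (SE 0.14, adjusted p = 9.05e-08) without the control at 39.5. In RS4;11 it had 18.6, 18.9 and 18.03 CPM in control and 17.3, 18.6 and 13.9 CPM treated, and the difference between the lines was -1.29 (adjusted p = 0.00496), or -1.12. CCNE2, cyclin E2 (chr8:94879770-94896678), had 47.8, 53.0 and 14.9 CPM in TOM-1 control and 21.2, 18.6 and 18.5 CPM treated. The departing control was below the treated libraries, which were below the other 2. Its change was -0.99 (SE 0.33, adjusted p = 0.0392) with all libraries, a call that ended in 11 of 22 settings, and -1.38 (SE 0.10, adjusted p = 2.78e-10) without the control at 14.9. Of its exonic bases 37.1% overlap a gene of the opposite strand.

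UHRF1, which guides DNA methylation to newly copied DNA (chr19:4903080-4962154), had 1281, 1312 and 823 CPM in TOM-1 control and 820, 843 and 778 CPM treated. The departing control overlapped the treated libraries, and the fall of 0.48 (adjusted p = 0.0339) was 0.67 (adjusted p = 8.22e-09) without it. With all 12 libraries this call ended whenever any 1 of the other 5 TOM-1 libraries was left out. CHAF1B, a subunit of the assembly factor that places histones on new DNA (chr21:36385378-36419015), fell from 54.9, 59.1 and 67.9 CPM to 44.0, 38.4 and 36.1 CPM, at -0.62 (adjusted p = 0.0063), or -0.53 with the departing library left out. Its partner CHAF1A had 150 to 184 CPM in control and 136 to 150 CPM treated and did not pass (-0.25, adjusted p = 0.117, or -0.17, adjusted p = 0.0674).

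Between the untreated lines, 14 members differed, 10 lower and 4 higher in TOM-1, where 34.7% of all tested genes did, 18.4% lower and 16.2% higher, and the median difference was -0.21 beside 0.01 for all genes. The higher ones were POLD2 (1.39), CCNE1 (0.79), POLA1 (0.72) and GINS3 (0.38). Without the departing library POLA1 was the highest of the 52, at 0.92, so POLD2 lay below it, and GINS3 was at 0.30. Over all libraries the largest shortfall was that of E2F2, with 167 to 181 CPM in TOM-1 and 293 to 308 CPM in RS4;11 (-0.79, adjusted p = 4.32e-05), followed by CDC6 (-0.78) and RFC3 (-0.74). Treated TOM-1 libraries held E2F2 at 267 to 289 CPM, short of the RS4;11 controls. Count and order rested on the departing library: the lowest of the 52 without it were GINS2 (-0.81), RPA2 (-0.80) and PRIM1 (-0.79), with E2F2 at -0.77, CDC6 at -0.71 and RFC3 at -0.57. With it left out, 30 members differed, 24 lower and 6 higher in TOM-1, where 52.8% of all genes did, 27.5% lower and 25.4% higher. This contrast compares 1 line of each genetic type, so line and genotype cannot be told apart.

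Genes around the replication machinery were counted in lists drawn up from textbook roles, and in RS4;11 none of their members passed at either setting. Among 22 other genes of licensing and the fork, 6 fell and 2 rose in TOM-1, where 15.9% lower and 15.9% higher is the share over all tested genes, with a median of -0.02 beside 0.05 (9 and 2, median -0.17, without the departing library, where the shares are 19.8% and 21.8%). Values in parentheses after a count or change below are likewise those without that library. RECQL4, a helicase needed to start replication, fell from 160, 184 and 299 CPM to 58.1, 61.7 and 55.7 CPM, at -1.87 (adjusted p = 7.93e-05; -1.56). POLE3, a small subunit of polymerase epsilon, fell from 106, 114 and 130 CPM to 65.7, 62.6 and 62.2 CPM, at -0.88 (-0.80). Of 17 fork protection and checkpoint genes 4 fell and 1 rose (6 and 3), a share called of about that over all genes, 15.9% lower and 15.9% higher (19.8% and 21.8%). Those that fell included TIMELESS, a fork protection protein, at -1.17 (-1.27), and CHTF18, of an alternative clamp loader, at -1.42 (-1.23). The median of that list was 0.00 (-0.12).

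Of 16 genes of E2F factors, their DP partners, pocket proteins and the associated repressor complex, 6 rose and 2 fell, with a median of 0.49 that was 0.13 without the departing library, where 6 rose and 4 fell; over all genes 15.9% lower and 15.9% higher passed (19.8% and 21.8%). RB1, the retinoblastoma protein, had 239, 233 and 79.2 CPM in TOM-1 control and 482, 490 and 444 CPM treated. It rose by 1.36 (SE 0.30, adjusted p = 0.00519), or by 1.00 (SE 0.07, adjusted p = 2.16e-10) without the control at 79.2. In a fit on the TOM-1 libraries alone RB1 missed the threshold (adjusted p = 0.0581). Its difference between the lines did not pass in the main fit but passed in some alternative settings (0.79 to 1.39 over all settings). TFDP1, a DP partner with which most E2F factors bind DNA, fell from 444, 431 and 346 CPM to 193, 192 and 182 CPM. Its change was -1.11 (adjusted p = 4.33e-05), or -1.21 without the departing library. LIN9, of the repressor complex, rose by 0.73 (adjusted p = 0.00144; 0.74).

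Of 12 genes for G1/S kinases, cyclins, inhibitors and their ligases, 11 were tested, and 4 fell and 2 rose (5 and 2), against 15.9% lower and 15.9% higher over all genes (19.8% and 21.8%), with a median of -0.02 (-0.18). CDKN1A, the kinase inhibitor p21, had 95.7, 88.2 and 127 CPM in TOM-1 control and 351, 357 and 327 CPM treated. It rose by 1.74 (SE 0.14, adjusted p = 7.16e-06), or 1.91 without the departing control, while RS4;11 had 140, 133 and 127 CPM in control and 118, 120 and 115 CPM treated (-0.18, adjusted p = 1, or 0.185), and the difference between the lines was 1.92 (adjusted p = 0.000157), or 2.09. CDKN1B, the inhibitor p27, rose by 0.82 (adjusted p = 0.00107), or 0.67 without the departing control. It had 126, 118 and 86.1 CPM in TOM-1 control and 195, 201 and 187 CPM treated. For CDKN1B the difference between the lines did not pass in the main fit but passed in some alternative settings (0.49 to 0.73 over all settings). CDK2, the kinase that cyclin E activates, fell from 88.4, 91.2 and 76.4 CPM to 47.6, 44.6 and 44.7 CPM, at -0.90 (adjusted p = 0.000123; -0.98).

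**Figure D5:**
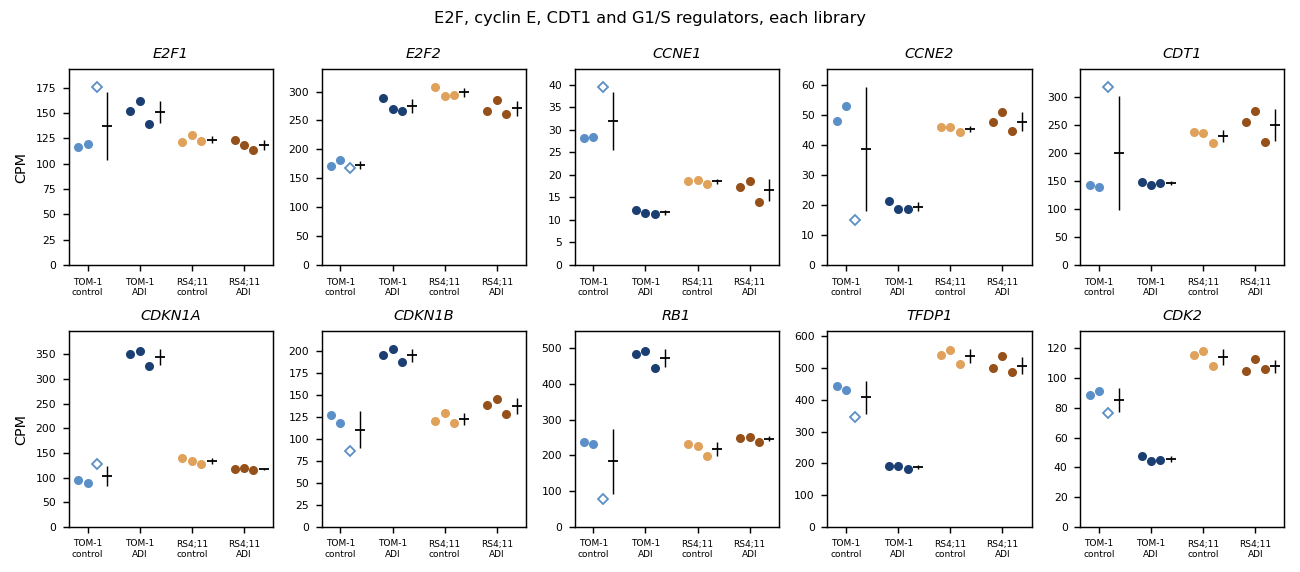
CPM of E2F1, E2F2, CCNE1, CCNE2 and CDT1 (top) and CDKN1A, CDKN1B, RB1, TFDP1 and CDK2 (bottom) by group; points are libraries, the open diamond is TOM-1 control replicate 3, ticks with bars are mean ± SD (n = 3), and axes start at 0. Treated TOM-1 is higher for E2F2, CDKN1A, CDKN1B and RB1 and lower for CCNE1, TFDP1 and CDK2, and the diamond lies far from the other controls for CDT1, CCNE2 and RB1.

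Other deoxynucleotide genes gave 9 that fell and 2 that rose of 14, with a median of -0.80 (10 and 2, -0.53), against 15.9% lower and 15.9% higher over all genes (19.8% and 21.8%). SLC29A1, a nucleoside transporter, fell from 111, 113 and 156 CPM to 18.6, 22.4 and 21.8 CPM, at -2.59 (adjusted p = 1.43e-06; -2.42), and SHMT1, a serine hydroxymethyltransferase that supplies folate units for thymidylate, fell by 1.08 (adjusted p = 3.15e-05; 1.05). Of 13 further genes of chromatin assembly 6 fell and 1 rose, median -0.19 (8 and 2, -0.41), beside the same shares over all genes. NASP, a carrier of histones, fell by 0.97 (0.84), whereas ASF1A, a chaperone of histones H3 and H4, rose by 1.18 (1.19), from 43.9, 44.1 and 45.6 CPM to 98.5, 108 and 96.3 CPM. Of 15 repair genes commonly listed as E2F targets 3 fell and 3 rose, median 0.16 (4 and 5, 0.04), near the 15.9% lower and 15.9% higher of all genes. UNG, the uracil glycosylase, was at -1.99 (-2.03) and EXO1, an exonuclease of mismatch repair, at 0.75 (0.80).

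Of 30 mitotic genes 5 fell and 2 rose, with a median of 0.03 (7 and 5, -0.07), against 15.9% lower and 15.9% higher over all genes (19.8% and 21.8%), so the share that fell was near that of all genes. CCNB1, cyclin B1, fell from 142, 135 and 144 CPM to 89.2, 89.6 and 80.9 CPM, at -0.70 (-0.68), and HMMR, a spindle protein, rose from 52.1, 54.7 and 33.5 CPM to 107, 115 and 113 CPM, at 1.25 (1.06). The replication genes thus stood at -0.51 (-0.47) and the mitotic genes at 0.03 (-0.07) in median, beside 0.05 (0.00) for all tested genes, as a description of these libraries.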

How the data were processed

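Poly(A) RNA of 12 libraries, 3 in each of 4 groups taken from the sample titles, was analysed. The authors deposited raw read counts per Ensembl gene, not normalized. The submitters' processing notes name STAR, SAMtools, featureCounts and hg38. Versions, annotation and use of strand are not given in the sources used here, so reads of overlapping genes are uncertain. Symbols were looked up by Ensembl identifier, and positions, exonic lengths and overlaps from GENCODE 29. Counts were filtered (filterByExpr), scaled by TMM and fitted over all groups with edgeR 4.0.16 in R 4.3.3 (glmQLFit, glmQLFTest), with Benjamini-Hochberg adjustment over all tested genes at 0.05. CPM values are scaled by TMM. SE is the log2 fold change over the square root of F. Every test was repeated without TOM-1 control replicate 3, but levels per kb were not. Alternatives used DESeq2 1.42.0, limma 3.58.1 voom, other filters, length offsets, a replicate block and each library left out. The fits were tested on simulated data with 200 changed genes and the spread estimated from all 12 libraries. In TOM-1, 41 of 100 2-fold and 77 of 100 4-fold changes were recovered (22 and 83 without TOM-1 control replicate 3). For the difference between the lines these were 12 and 54 (6 and 71). The values in parentheses keep the spread of all 12 libraries, to which the departing library adds. They therefore do not describe the real fit without that library, where the spread was smaller. False calls numbered 0 to 6. A gene that did not pass may thus have changed, above all for the difference. Members, lists and the rule for named genes were chosen with earlier results of these data known. By that rule the text details the 2 members of each role with the lowest TOM-1 p, members that rose, CDC6, CDT1, GMNN, PCNA, RRM2, the E2F and cyclin E genes, and up to 2 genes of each further list with CDKN1A, CDKN1B and RB1. Other members, such as ORC1, CDC45, POLD2 and RPA3, were detailed after their values were seen. Promoters came from RefSeq; POLD3, MCM4, RPA3, CCNE2, GINS4, MCM5 and RPA2 had no entry. Figures were drawn with matplotlib 3.10.9.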

Additional observations from a re-analysis of the deposited data

Results flagged for a closer look

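The effect of ADI-PEG20 differed between the lines, by the edgeR test of the difference itself over all 12 libraries, for 24 of the 52 genes. Over all tested genes 11.9% passed, 5.89% higher and 6.05% lower. The values are the TOM-1 log2 change minus that of RS4;11. In the licensing group it was 0.58 for ORC3, 0.997 for ORC4 and 0.75 for ORC5. In the MCM2-7 ring it was -1.15 for MCM2, -0.76 for MCM3, -1.06 for MCM4, -1.54 for MCM5 and -1.26 for MCM7. The GINS genes gave -0.82 for GINS1, -1.77 for GINS2, -0.77 for GINS3 and -0.71 for GINS4. Polymerase and clamp genes gave -1.43 for POLD1, -1.25 for POLD2, -1.05 for POLE and -0.92 for PCNA. FEN1 was at -1.32, LIG1 at -1.05, RPA1 at -0.998 and RPA3 at -1.10. RRM2 was at -0.72, TK1 at -1.33, CCNE1 at -1.29 and E2F2 at 0.81. Without TOM-1 control replicate 3, POLD2 was at -0.77 and TK1 at -0.78. All 24 passed in the same direction with that library left out. The calls made with all 12 libraries for ORC3, ORC5, PCNA and TK1 were lost in 13, 15, 10 and 10 of 21 alternative settings. Such losses were counted for only part of the 24 genes.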

How the results depend on the processing

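With each of the 12 libraries left out in turn, 26 to 40 members passed in TOM-1 (median log2 change -0.575 to -0.474), 0 to 0 in RS4;11 (-0.108 to 0.00777), 17 to 33 for the difference between the lines (-0.529 to -0.408) and 8 to 30 for the lines in control culture (-0.297 to -0.172). The highest counts came from leaving out TOM-1 control replicate 3. For the lines in control culture, the 14 members became 8 with no filter, 9 with length offsets, 34 with voom and quality weights, and 5 in a fit on those 2 groups alone; without the departing library they were 28 with length offsets and 30 with DESeq2 size factors, both chosen after seeing the data. Leaving out treated TOM-1 replicate 2 or 3, RS4;11 control replicate 1 or 2, or treated RS4;11 replicate 1 gave 8 or 9. The cause was not tested.

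The difference between the lines turned sign for CDC6, which did not pass, at -0.0464 with length offsets, at -0.000381, -0.023 and -0.00376 without TOM-1 control replicate 3, RS4;11 control replicate 1 or treated RS4;11 replicate 3, and at -0.00838 and -0.0157 under the added settings; with single libraries left out it ran from -0.023 to 0.152. For CDT1 in TOM-1, which did not pass, it turned to 0.0235 with voom, 0.0435 without the departing library, and 0.0444 and 0.033 under the added settings, and ran from -0.694 to 0.0435 with single libraries left out. Over all named genes, 1688 alternative values kept direction and side of the threshold, 105 lost the call, 46 gained it and 10 turned. Over all tested genes, deviations from the group mean correlated at -0.062 to 0.145 between same-numbered libraries of a line. Mismatched numbers gave -0.095 to 0.07. Same-numbered values were all negative in TOM-1 (-0.027, -0.012 and -0.062) and all positive in RS4;11 (0.057, 0.031 and 0.145). In RS4;11, replicate 3 had the lowest summed level of the 52 genes in both conditions. The labels do not say that the numbers mark pairs, and the main fit did not use them as pairs. With the replicate block, 31 members passed in TOM-1, 0 in RS4;11, 18 for the difference and 11 for the lines. The lowest count of any member in any library was 271, and the part of counting error in the spread was not separated.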
